A study of Mus musculus with 2 samples.

Results

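Natural killer (NK) cells whose granzyme RNA was led by Gzma were described in tumor leukocytes of mice on a normal or a ketogenic diet. A cell was counted as a Gzma-dominant NK cell by its own unique molecular identifier (UMI) counts. It needed at least 500 UMIs, 300 genes and at most 10% mitochondrial UMIs. The NK gate asked for 2 or more UMIs of Ncr1, Klrb1c and Klre1 in sum, at most 1 of the Cd3d, Cd3e and Cd3g genes and fewer than 5 of Lyz2 and the C1q genes. Within the gate, Gzma had to reach 5 UMIs and exceed Gzmc, with fewer than 20 UMIs of Gzmd, Gzme and Gzmg and fewer than 5 of the cell cycle genes Mki67, Top2a, Birc5 and Pclaf. These limits selected 917 cells of 2405 gated NK cells and of 11481 barcodes that passed the quality limits.

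The cells came from tumors grown under the skin of the right flank of female C57BL/6J mice aged 6 to 8 weeks, from injected MC38 cells, a mouse colon adenocarcinoma line. Mice of the control group were fed a normal diet, and mice of the other group were given a ketogenic diet from day 4. In both groups tumors were taken at day 14, and CD45-positive leukocytes were isolated with magnetic beads after dead cells had been removed. Each diet was 1 library made from 5 pooled mice. Barcodes carry no mark of the mouse, so diet and library cannot be told apart and no test between diets was made. Intervals are 95% intervals that cover counting error only, exact for UMI sums, for shares of cells (Clopper-Pearson) and for ratios of UMI sums. Ratios of shares of cells were given the same interval as ratios of UMI sums, which is not exact for shares. The spread between cells and between mice is left out. Intervals of sums and ratios are therefore too narrow for genes whose counts vary widely between cells, such as Ccl5, Ccl4 and Ccl3.

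NK cells are innate lymphocytes that kill target cells by releasing perforin and granzymes from granules and that secrete chemokines and interferon gamma. Gzma encodes granzyme A, a tryptase of these granules, and Gzmb encodes granzyme B, which activates the apoptosis machinery. Gzmc to Gzmg lie in the granzyme B gene cluster and encode further mouse granzymes. In mice, conventional circulating NK cells depend on the T-box factor Eomes and carry Ly49 receptors, the products of the Klra genes, which read MHC class I on other cells.

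Libraries held 37575996 UMIs (normal) and 42710007 UMIs (ketogenic). The Gzma-dominant cells held 776549 and 1600653 of them, and the median cell had 2255 and 2086 UMIs from 1047 and 969 genes. No member shared a barcode with a member of the other library, and 7 barcodes of cell size did over the whole series. No doublet caller was run, and barcodes of mixed lineage were limited by the Cd3, Lyz2 and C1q gates. RNA of marker genes of other cell types was present. The 12 monocyte markers outside the gate summed to 1948 and 1734 CPM (UMIs per 1000000 UMIs of the class). In each library 1 of them was at 0. Macrophage barcodes held 12005 and 14520 CPM of these markers, and Gzmc-dominant NK cells 2199 and 1822 CPM. Without the members with myeloid RNA, left out as a check below, 1671 and 1289 CPM remained. Plac8 alone then held 899 and 732 CPM. The monocyte sum therefore does not separate RNA of monocytes from RNA of NK cells. The 11 dendritic cell markers summed to 773 and 430 CPM, against 7687 and 4702 CPM, with 3 and 0 at 0. The 12 macrophage markers outside the gate summed to 509 and 131 CPM, against 9959 and 6593 CPM in macrophage barcodes, with 1 and 2 markers at 0. The 9 neutrophil markers summed to 45.1 and 507 CPM, with 2 and 0 at 0, and 1 ketogenic cell held 35.7% of the S100a8 UMIs. The 12 T cell markers summed to 1060 and 910 CPM, near the 962 and 892 CPM of Gzmc-dominant NK cells. Among tumor or stroma markers, 5 of 10 were at 0 in each library.

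Gzma-dominant NK cells were a larger part of the ketogenic library. They numbered 293 of 880 gated NK cells (33.3%, 30.2 to 36.5) in the normal library. In the ketogenic library they numbered 624 of 1525 (40.9%, 38.4 to 43.4), a ratio of 1.23 (1.07 to 1.42). Without cells with 3 or more UMIs of 17 myeloid genes the ratio was 1.16 (1.002 to 1.34). Without cells over 6000 UMIs the shares were 52.2% and 56.6%, and the interval of their ratio of 1.08 (0.938 to 1.25) included equal shares. Of all barcodes that passed the quality limits the class made up 5.225% (4.66 to 5.84) and 10.6% (9.85 to 11.4), a ratio of 2.03 (1.77 to 2.34). The gated NK cells that remained formed 4 classes. Gzmc-dominant cells, with at least 5 UMIs of Gzmc and no fewer than of Gzma, made up 35.9% and 33.4% of gated NK cells. Cells rich in Gzmd, Gzme and Gzmg made up 12.7% and 10.7%, cycling cells 11.4% and 8.98%, and low-granzyme cells 6.71% and 5.97%. For these 4 classes the interval of the ratio among NK cells included 1. Among all barcodes that passed the quality limits, each of them also had a larger share in the ketogenic library. The ratios were 1.54 (1.34 to 1.78) for Gzmc-dominant cells and 1.39 (1.09 to 1.78) for cells rich in Gzmd, Gzme and Gzmg. They were 1.31 (1.004 to 1.71) for cycling and 1.47 (1.05 to 2.08) for low-granzyme cells.

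**Figure D1:**
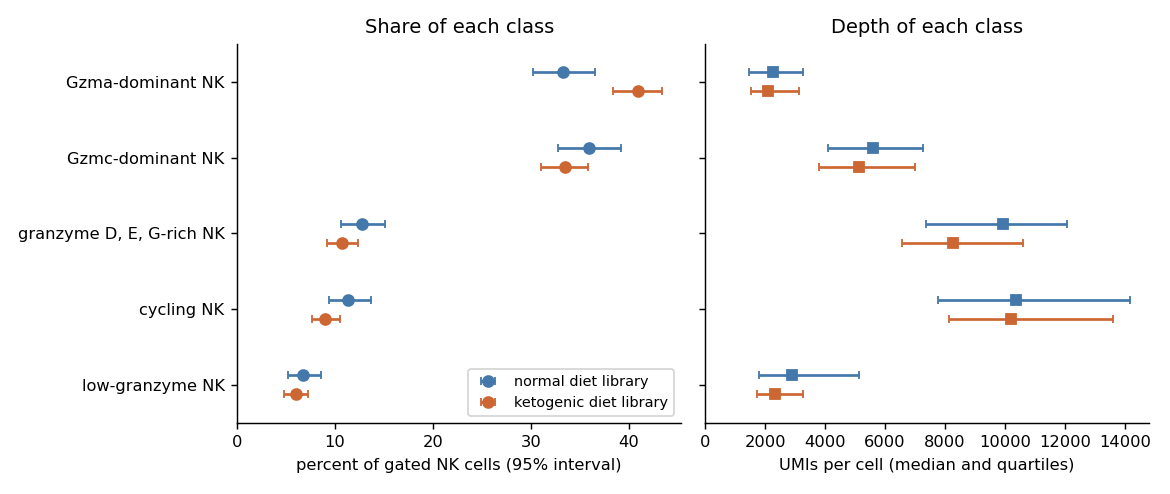
Left, percent of gated NK cells in each of 5 classes with 95% Clopper-Pearson intervals. Right, median and quartiles of UMIs per cell. Blue is the normal and orange the ketogenic diet library. Gzma-dominant cells have the larger share in the ketogenic library, at 40.9% against 33.3%, and medians of 2255 and 2086 UMIs, below the 5600 and 5136 of Gzmc-dominant cells.

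The class was shallower than 3 of the other 4 NK classes and near the low-granzyme cells, whose medians were 2914 and 2342 UMIs. Median UMIs were 5600 and 5136 in Gzmc-dominant cells, 9956 and 8260 in cells rich in Gzmd, Gzme and Gzmg, and 10374 and 10201 in cycling cells. The limits are UMI counts, so a shallow cell reaches a limit of 20 UMIs less easily. When every barcode was thinned to 1500 UMIs before the gates, the class made up 29.03% and 38.3% of gated NK cells. Few members lay near the limits. Gzma was at 5 or 6 UMIs in 15 and 25 members, and 10 and 22 gated cells lay just outside at 3 or 4 UMIs. In 28 and 37 members Gzma exceeded Gzmc by less than 2 times, and in 21 and 47 gated cells outside Gzmc led by less than 2 times. In the cycling class, 11 and 14 cells would have met the Gzma limits.

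The granzyme counts that chose the cells are given as a description. Median Gzma per cell was 23 UMIs (normal) and 24.5 UMIs (ketogenic), with highest values of 163 and 194. Gzma supplied 59.9% and 65.7% of the granzyme UMIs of the class, Gzmb 28.7% and 24.6%, and Gzmc 10.8% and 8.38%. UMIs of this 3 prime assay count molecules and do not scale with transcript length. Gzmc was at 0 UMIs in 171 of 293 and 351 of 624 members. In Gzmc-dominant cells Gzma supplied 6.59% and 7.70%, Gzmb 10.6% and 9.001% and Gzmc 79.7% and 80.2%.

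Gzma lies at chr13:113093825-113100981 and Gzmc at chr14:56231441-56234656, both on the minus strand of GRCm38. The promoters of both granzymes that split the classes are shown because the split turns on them, and that of Ccl3 because Ccl3 was among the 3 genes highest against Gzmc-dominant cells. Each runs from 250 bases before to 50 bases after the RefSeq gene start on GRCm38.p6, read 5′ to 3′ along the gene. They lie at chr13:113100932-113101231, chr14:56234608-56234907 and chr11:83649329-83649628, all on the minus strand. Capitals mark the letters TGTGGT, the Runx motif, on either strand.
Gzma promoter: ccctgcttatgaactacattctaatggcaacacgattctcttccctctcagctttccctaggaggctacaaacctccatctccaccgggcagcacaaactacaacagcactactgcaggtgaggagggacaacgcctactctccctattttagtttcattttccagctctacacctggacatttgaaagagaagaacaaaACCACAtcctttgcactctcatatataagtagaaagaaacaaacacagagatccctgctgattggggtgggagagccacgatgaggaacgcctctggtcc
Gzmc promoter: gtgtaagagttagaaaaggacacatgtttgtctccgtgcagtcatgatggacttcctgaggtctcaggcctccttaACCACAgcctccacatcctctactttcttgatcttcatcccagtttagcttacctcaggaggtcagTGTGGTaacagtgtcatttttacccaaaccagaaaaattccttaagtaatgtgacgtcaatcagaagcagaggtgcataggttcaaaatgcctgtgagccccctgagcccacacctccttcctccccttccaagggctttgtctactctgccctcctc
Ccl3 promoter: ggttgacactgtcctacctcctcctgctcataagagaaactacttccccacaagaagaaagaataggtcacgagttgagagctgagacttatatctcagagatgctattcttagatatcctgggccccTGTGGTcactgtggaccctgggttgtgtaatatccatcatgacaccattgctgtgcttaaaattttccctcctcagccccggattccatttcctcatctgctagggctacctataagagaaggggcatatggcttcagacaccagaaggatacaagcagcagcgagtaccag
The Runx letters occurred 1 time in the Gzma, 2 times in the Gzmc and 1 time in the Ccl3 promoter, and in 16.8% of the 32851 promoters of this length. The Klf2 promoter was searched as well, is not printed, and had 0 matches of the Runx letters. The T-box letters AGGTGNGA, the AP-1 letters TGANTCA, the NF-kB motif and the KLF letters GGGTGTG were also searched on both strands. These letters occurred in none of the 3 printed windows and not in the Klf2 window. They occurred in 5.43%, 7.81%, 0.411% and 7.95% of all promoters. A match describes letters and shows no binding.

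The 6 marker genes given for the class were all detected. Their levels are a description with no test, because the class was chosen on counts of the same cells. Klrb1c, which encodes the NK receptor NK1.1 and is part of the gate, was at 550 CPM in the normal and 624 CPM in the ketogenic library. Eomes, the T-box factor, was at 202 and 211 CPM, against 129 and 102 CPM in Gzmc-dominant cells and 3.52 and 5.46 CPM in macrophage barcodes. Klra4 was at 613 and 589 CPM, against 326 and 348 CPM in Gzmc-dominant cells. Klra8, which encodes the activating receptor Ly49H, was at 372 and 405 CPM, against 245 and 236 CPM. As CPM, each marker was higher in Gzma-dominant than in Gzmc-dominant cells in both libraries. Of the 4 outside the gate, 1, Ccl5, was 2-fold higher. CPM is a share of UMIs, and Gzmc-dominant cells were deeper, so the order does not hold for UMIs per cell of each marker. Klra8 had 289 and 648 UMIs in 293 and 624 members, but 456 and 679 UMIs in 316 and 510 Gzmc-dominant cells. For Gzma and Klrb1c the gates used these counts. Ccl5, Klra4, Klra8 and Eomes were not used by the gates, and their RNA was present in both libraries. Low-granzyme NK cells held 928 and 1995 CPM of Ccl5 and 218 and 136 CPM of Eomes. They held 603 and 429 CPM of Klra4 and 283 and 206 CPM of Klra8. The 18 tissue-resident and ILC1 genes summed to 3581 and 4047 CPM, against 4324 and 5304 CPM in Gzmc-dominant cells. Most of that sum came from Xcl1 at 1370 and 2205 CPM and Rgs1, a regulator of G protein signaling, at 1113 and 795 CPM. Among the other members, Itga1 was at 65.7 and 34.4 CPM, Cxcr6 had 2 and 5 UMIs and Zfp683 had 0 UMIs in each library.

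**Figure D2:**
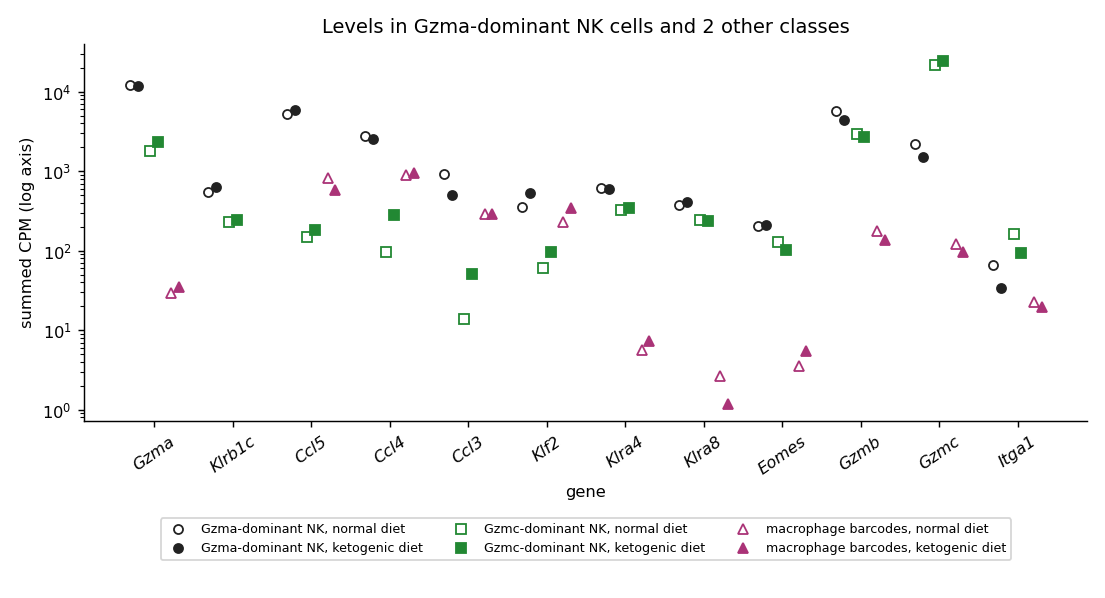
Summed CPM on a log axis of 12 genes in Gzma-dominant NK cells (black circles), Gzmc-dominant NK cells (green squares) and macrophage barcodes (purple triangles). Open symbols are the normal and filled symbols the ketogenic library, and a level of 0 is not drawn. Ccl5 is at 5172 and 5965 CPM in Gzma-dominant cells and at 148 and 181 CPM in Gzmc-dominant cells.

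Ly49 receptors were carried in varied combinations. Besides Klra4 and Klra8, Klra7 was at 515 and 367 CPM, Klra9 at 319 and 251 CPM, Klra3 at 206 and 252 CPM and Klra1 at 131 and 126 CPM. Of 11 Klra genes on the list, 6 passed the filter on low values between diets and 0 differed by 1.5-fold. Among cells of at least 1500 UMIs, the median cell had UMIs of 2 of these 6 genes. Cells with none numbered 13 of 217 (5.99%, 3.23 to 10.0) and 50 of 479 (10.4%, 7.85 to 13.5). A Klra8 UMI was found in 51 of 111 normal cells with a Klra4 UMI (45.9%, 36.5 to 55.7) and in 39 of 106 without one (36.8%, 27.6 to 46.7). In the ketogenic library these were 124 of 234 (53.0%, 46.4 to 59.5) and 92 of 245 (37.6%, 31.5 to 43.9). Deeper cells show more genes, so these shares move with depth as well. The Klra genes are close relatives. In the last 500 bases of their coding transcripts, 97.5% of 60-base windows of Klra4 and 93.7% of Klra8 occurred in no other gene, against 82.7% for Klra7, 78.8% for Klra3 and 61.3% for Klra9, whose counts are therefore uncertain.

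Against Gzmc-dominant NK cells, the class had 39 genes at least 2-fold higher (0.785% of 4969 genes that passed the filter) and 23 at least 2-fold lower (0.463%) in both libraries. The ratio is log2 of CPM with 10 CPM added, and the filter was a mean of 20 CPM over both classes and libraries. Gate genes were left out. Both classes were selected on counts of these same cells, so these are descriptions with no test. The median ratio over all genes was 0.08 and 0.06.

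Chemokines led this difference. Ccl5, Ccl4 and Ccl3 encode chemokines that attract leukocytes and lie near each other on chromosome 11, at chr11:83525778-83530518, chr11:83662584-83664683 and chr11:83647844-83649355. Ccl5 was at 5172 and 5965 CPM in Gzma-dominant and at 148 and 181 CPM in Gzmc-dominant cells, log2 ratios of 5.04 and 4.97. Ccl4 was at 2734 and 2555 CPM against 97.6 and 280 CPM, log2 ratios of 4.67 and 3.14. Ccl3 was at 909 and 501 CPM against 13.9 and 50.5 CPM, log2 ratios of 5.26 and 3.08. Macrophage barcodes held 821 and 575 CPM of Ccl5, 900 and 945 CPM of Ccl4 and 291 and 286 CPM of Ccl3. Ifng, which encodes interferon gamma, was at 480 and 317 CPM against 131 and 69.9 CPM. The opposite order held for Ltb, the membrane lymphotoxin subunit, at 133 and 163 CPM against 491 and 401 CPM, and its log2 ratios were −1.81 and −1.25. Xcl1, a chemokine that attracts cross-presenting dendritic cells, was at 1370 and 2205 CPM against 2054 and 3117 CPM, which was under 2-fold.

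Genes of circulation and adhesion formed a second group. Klf2, a transcription factor that maintains genes of lymphocyte exit from tissue, was at 355 and 531 CPM against 61.2 and 95.7 CPM, with log2 ratios of 2.36 and 2.36. Macrophage barcodes held 229 and 349 CPM of Klf2. Cxcr4, a receptor for a stromal chemokine, was at 77.3 and 91.2 CPM against 9.12 and 12.9 CPM. Itga2, the integrin CD49b of conventional NK cells, was at 56.7 and 62.5 CPM against 10.7 and 10.8 CPM, and Itgam, the integrin CD11b of mature NK cells, at 48.9 and 36.2 CPM against 7.51 and 6.26 CPM. Macrophage barcodes held 323 and 306 CPM of Itgam, and the class held 39.0 and 33.7 CPM without the cells with myeloid RNA. With cells thinned to 1500 UMIs, a Cxcr4 UMI was found in 9.74% and 11.4% of the class. In macrophage barcodes it was found in 9.805% and 12.65%. S1pr5, a receptor that guides NK cells out of tissue, had 15 and 23 UMIs in the class and 5 and 2 in Gzmc-dominant cells. Of the trafficking list, 5 of 19 genes that passed were 2-fold higher and 2 were 2-fold lower. Itga1, the integrin CD49a, was the reverse at 65.7 and 34.4 CPM against 161 and 92.5 CPM. The list median was 0.80 and 0.54.

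Other genes among the 12 largest in this direction were Pde2a, a cyclic nucleotide phosphodiesterase, at 70.8 and 85.0 CPM against 8.05 and 10.1 CPM, Adgre5, the adhesion receptor CD97, Mxd1, a repressor that pairs with Max, and the RNA Mirt1. Slpi was also among them, but 1 cell held 95.3% of its UMIs in 1 library. Cma1, a chymase gene, had 31 and 51 UMIs in Gzma-dominant and 1 and 1 in Gzmc-dominant cells. Among mature NK genes, 2 of 9 that passed were 2-fold higher. Early response and NF-kB genes, transcripts that appear soon after a stimulus, were 2-fold higher for 7 of 32 genes and lower for 0, with a median of 0.71 and 0.78. Zfp36 was at 202 and 165 CPM against 52.0 and 57.8 CPM, and Fos at 269 and 222 CPM against 112 and 105 CPM.

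Genes lower in Gzma-dominant cells included S100a4, whose product binds calcium, at 250 and 129 CPM against 839 and 579 CPM. Ifitm1 and Ifitm2, membrane proteins that hinder virus entry, were at 63.1 and 107 CPM against 318 and 455 CPM, and at 209 and 195 CPM against 693 and 795 CPM. Igflr1, a receptor of the tumor necrosis factor receptor family, was at 19.3 and 28.7 CPM against 189 and 155 CPM, log2 ratios of −2.77 and −2.09. Gzmf was at 79.8 and 162 CPM against 497 and 608 CPM, with 1 cell of the class holding 77.4% of its UMIs in 1 library. Lag3, an inhibitory receptor, was at 23.2 and 25.6 CPM against 73.5 and 69.9 CPM, log2 ratios of −1.33 and −1.17. Sema6d, Myo10, Nrgn, Igha, Gstp3 and Upp1 completed the 12 largest in this direction. Of the tissue-resident and ILC1 list, 3 of 11 genes were 2-fold lower and 0 higher, with medians of −0.58 and −0.50. Perforin (Prf1) was at 1106 and 946 CPM against 870 and 802 CPM, so it differed by less than 2-fold, and Gzmb was at 5760 and 4446 CPM against 2896 and 2717 CPM.

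**Figure D3:**
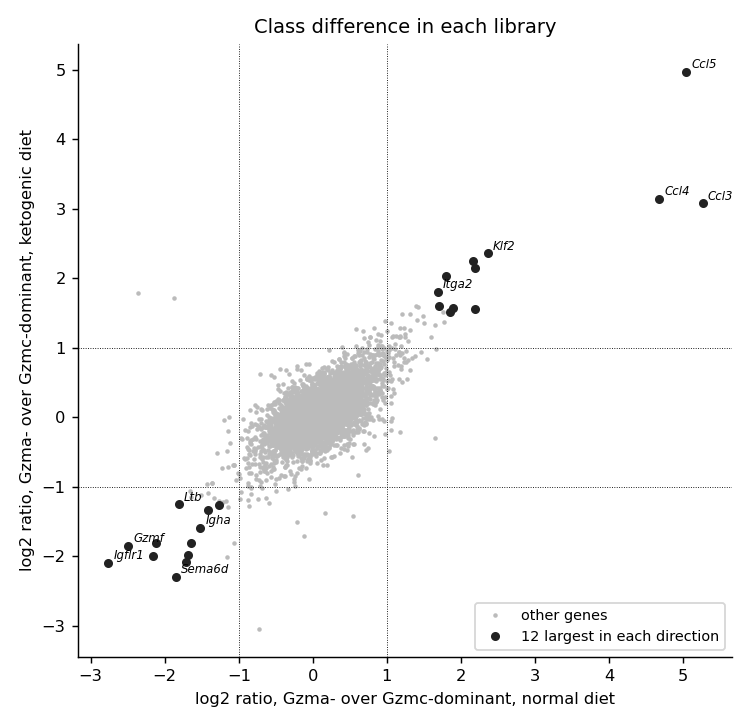
Each point is a gene that passed the filter, with the log2 ratio of Gzma-dominant over Gzmc-dominant NK cells in the normal library (x axis) and in the ketogenic library (y axis). Black points are the 12 largest in each direction in both libraries, 10 of them named, and dotted lines mark 2-fold. Ccl5, Ccl4 and Ccl3 lie farthest out, at ratios of 3.08 to 5.26.

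The spread of chemokine and receptor counts between cells of the class was measured at equal depth. With each cell thinned to 1500 UMIs, which kept 217 and 479 members and left out 76 and 145, a Ccl5 UMI was found in 63.0% and 68.3% of cells. Unthinned shares were 75.4% and 79.8%. In Gzmc-dominant cells the thinned share was 8.51% and 9.57% at median depths of 5600 and 5136 UMIs before thinning, and in macrophage barcodes 25.1% and 17.01% at 4279 and 3919 UMIs. The variance of thinned Ccl5 counts over their mean was 22.7 and 23.7, where 1 is the value of pure counting. It was 18.6 and 17.2 for Ccl4 and 14.1 and 7.55 for Ccl3. It was 2.55 and 2.38 for Klra4, 1.76 and 1.90 for Klra8, 1.07 and 1.12 for Klrb1c and 1.07 and 1.13 for Eomes. This ratio grows with the mean, which was 9.04 and 9.32 thinned UMIs for Ccl5 but 0.562 and 0.658 for Klra8, so it does not rank these genes by spread. Thinned shares were 42.9% and 41.0% for Klra4, 32.1% and 35.7% for Klra8 and 23.7% and 26.4% for Eomes. In Gzmc-dominant cells they were 27.6% and 29.3% for Klra4, 23.7% and 23.7% for Klra8 and 17.2% and 14.0% for Eomes. Unthinned shares of the deeper Gzmc-dominant cells ran from 36.9% to 43.7% over these genes. Macrophage barcodes, which should lack these genes, gave 0.205% to 0.456% over the last 3 genes and both libraries, and unthinned shares were 37.9% to 47.8% in the class.

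Members were then split by their Ccl5 level, which makes ranges of cells and not cell types. Limits of 10 and 50 Ccl5 UMIs per 10000 were set after the values had been seen, among cells of at least 1500 UMIs. Below 10 were 101 of 217 and 202 of 479 cells, at 50 or more were 72 and 156, and 44 and 121 lay between. Median UMIs were 3369 and 3078 in the low range and 2052 and 1994 in the high range. The 17 myeloid genes summed to 856 and 838 CPM in the low range and to 402 and 764 CPM in the high range. In the middle range they summed to 935 and 510 CPM. The high range was the lowest of the 3 in the normal library but not in the ketogenic library, and the part of myeloid RNA in the values by range was not tested.

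Cells high in Ccl5 were also high in the genes that set the class apart from Gzmc-dominant cells. Of the 38 genes other than Ccl5 that were 2-fold higher in the class, 25 were 2-fold higher in the Ccl5-high than in the Ccl5-low range in both libraries and 0 were 2-fold lower, against 59 higher of 4968 genes overall. The ranges share these cells with the class comparison, so the count is no independent support. Ccl3 was at 112 CPM in the low and 1810 CPM in the high range of the normal library, and at 84.6 and 1009 CPM in the ketogenic library. Klf2 was at 96.0 and 539 CPM, and at 244 and 761 CPM. Ifng was at 218 and 965 CPM, and at 158 and 495 CPM. Cma1 was at 2.60 and 71.9 CPM, and at 5.55 and 81.5 CPM. Nfkbia, the inhibitor of NF-kB that NF-kB itself induces, was at 187 and 779 CPM, and at 357 and 1191 CPM.

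The low range resembled Gzmc-dominant cells in some genes. Gzmc was at 3674 CPM in the low and 330 CPM in the high range of the normal library, and at 2662 and 534 CPM in the ketogenic library. The median cell had 12.2 and 4.88 Gzmc UMIs per 10000 in the low and 0 in the high range. Itga1 was at 88.2 and 29.97 CPM, and at 47.2 and 8.43 CPM, and Thy1, a surface glycoprotein of lymphocytes, at 343 and 144 CPM, and at 247 and 121 CPM. Of the 23 genes lower in the class, 5 were 2-fold lower in the high range and 1 was 2-fold higher, against 36 lower and 59 higher of 4968 genes overall. Klra8 and Eomes differed by less than 2-fold between the ranges. Klra8 was at 371 and 378 CPM, and at 336 and 500 CPM, and Eomes at 156 and 210 CPM, and at 185 and 230 CPM. Xcl1 differed between the libraries, at 1287 and 1648 CPM under the normal diet but at 2760 and 1169 CPM under the ketogenic diet.

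**Figure D4:**
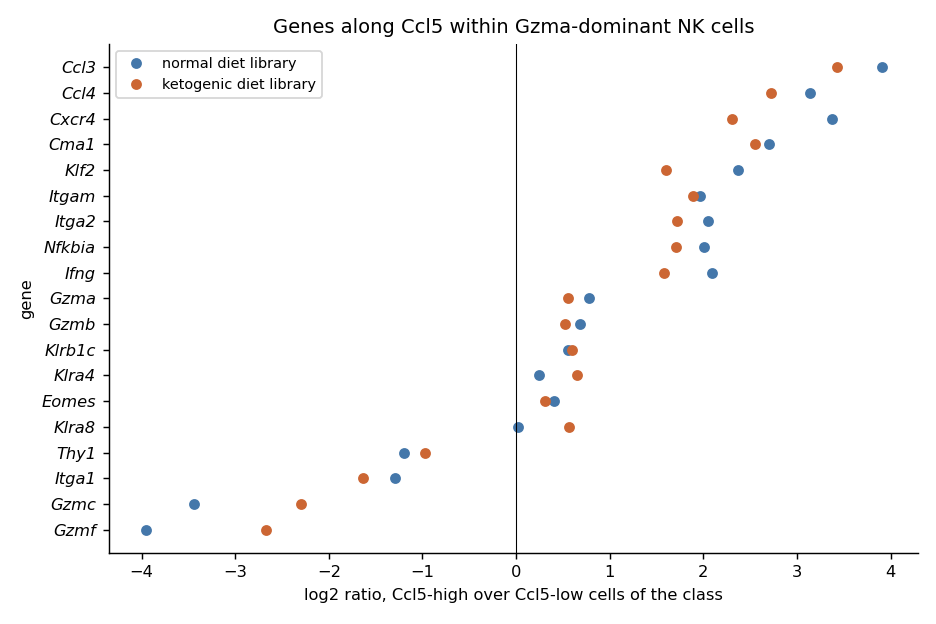
Log2 ratio of Ccl5-high (at least 50 UMIs per 10000) over Ccl5-low (under 10) Gzma-dominant cells for 19 genes, ordered by the sum over both libraries. Blue is the normal and orange the ketogenic library. Ccl3 is at 3.90 and 3.43 and Gzmc at −3.44 and −2.30.

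Between the diets, 74 of 5045 genes that passed a mean of 20 CPM were at least 1.5-fold higher in ketogenic Gzma-dominant cells (1.47%) and 290 at least 1.5-fold lower (5.75%), as ratios of CPM with 10 CPM added. Genes higher were 20.3% of those past the fold, and 31.1% when barcodes were thinned to 1500 UMIs before the gates. Genes near the filter have few UMIs, so counting error alone can carry some of them past 1.5-fold. With a filter at 100 CPM, 19 genes were higher and 56 lower. The median over all genes was −0.07. Each level below is given as normal, then ketogenic. The markers of the class differed by less than 1.5-fold in 4 of 4 that were outside the gate, among them Ccl5 at 5172 and 5965 CPM (ratio 1.15, 1.11 to 1.20) and Eomes at 202 and 211 CPM (ratio 1.04, 0.859 to 1.27). Macrophage RNA was lower (509 and 131 CPM over 12 markers) and neutrophil RNA higher (45.1 and 507 CPM over 9 markers) in the ketogenic cells, and 37 members with 3 or more UMIs of 17 myeloid genes, 19 and 18, were left out as a check. The remaining 274 and 606 cells had 82 genes higher and 270 lower of 5004.

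Secreted factors differed in both directions. Xcl1 was at 1370 and 2205 CPM (ratio 1.61, 1.502 to 1.72) and was found in 53.6% and 64.8% of thinned cells, against 1.84% and 3.69% of macrophage barcodes. Gzmc-dominant cells had 2054 and 3117 CPM. Ccl3 was lower at 909 and 501 CPM (ratio 0.551, 0.498 to 0.611), while in Gzmc-dominant cells it was at 13.9 and 50.5 CPM. The share of thinned cells with a Ccl3 UMI differed less, at 24.9% and 21.5%. Ccl4 was at 2734 and 2555 CPM. Ifng was at 480 and 317 CPM (ratio 0.661, 0.577 to 0.757), just under 1.5-fold on the scale with 10 CPM added. An Ifng UMI was found in 34.7% and 31.3% of thinned cells. Without the cells with myeloid RNA, Xcl1 was at 1432 and 2271 CPM and Ccl3 at 896 and 506 CPM, and Ifng, at 518 and 325 CPM, was past 1.5-fold.

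Killing genes differed little. Of 17 cytotoxic genes that passed, 1 was 1.5-fold higher and 1 lower, with a median of −0.14. Gzmb was at 5760 and 4446 CPM (ratio 0.772, 0.743 to 0.801), Prf1 at 1106 and 946 CPM (ratio 0.855, 0.786 to 0.931) and Nkg7, a granule membrane protein, at 3774 and 3963 CPM. The gene past 1.5-fold in the ketogenic direction was Gzmf, with 77.4% of its UMIs in 1 cell of 1 library. The gene past it in the other direction was Ctsc, a protease that activates granzymes, at 122 and 68.7 CPM, and at 95.3 and 68.0 CPM without the cells with myeloid RNA.

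Genes of mature NK cells were mostly lower in the ketogenic library. Of 11 that passed, 5 were 1.5-fold lower and 0 higher, with a median of −0.56. The list medians were −0.34 in Gzmc-dominant cells and −0.17 in macrophage barcodes. Emp3, of the same list, was higher at 309 and 419 CPM (ratio 1.35, 1.17 to 1.58). The intervals of Itgam (ratio 0.741, 0.484 to 1.15), Cma1 (ratio 0.798, 0.501 to 1.29) and Rap1b (ratio 0.868, 0.743 to 1.015) included 1. Zeb2, a transcription factor of terminal NK maturation, was at 183 and 93.1 CPM (ratio 0.509, 0.402 to 0.645), and Tbx21, the T-box factor T-bet, at 115 and 65.6 CPM (ratio 0.572, 0.427 to 0.768). Klrg1, a receptor of mature NK cells, had 33 and 31 UMIs in 776549 and 1600653 UMIs (ratio 0.456, 0.270 to 0.768). Zeb2 is also a macrophage gene, at 626 and 403 CPM in macrophage barcodes, and it was at 162 and 94.4 CPM without the cells with myeloid RNA. Ly6c2 was at 443 and 244 CPM, and at 296 and 242 CPM without those cells, under 1.5-fold. Without those cells 4 of 11 mature NK genes were 1.5-fold lower, with a median of −0.56. Irf8, an interferon regulatory factor, was at 1615 and 1089 CPM, just under 1.5-fold.

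Among 27 NK transcription factors that passed, 6 were 1.5-fold lower and 1 higher, with a median of −0.30. The factor that was higher was Nr4a1, an orphan nuclear receptor induced on receptor stimulation, at 129 and 215 CPM (ratio 1.67, 1.34 to 2.11). Klf2 was at 355 and 531 CPM (ratio 1.49, 1.30 to 1.72) and was found in 28.8% and 39.0% of thinned cells. Klf2 was also higher in ketogenic Gzmc-dominant cells, at 61.2 and 95.7 CPM, and in ketogenic macrophage barcodes, at 229 and 349 CPM, so the same order held in 3 cell classes of the same 2 libraries. S100a4 was at 250 and 129 CPM (ratio 0.515, 0.421 to 0.630) and Itga1 at 65.7 and 34.4 CPM (ratio 0.523, 0.351 to 0.781), and both were lower in ketogenic Gzmc-dominant cells too, at 839 and 579 CPM and at 161 and 92.5 CPM.

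Type I interferon response genes, which encode antiviral proteins, had a median of −0.32, with 14 of 42 that passed 1.5-fold lower and 0 higher. Rsad2, the antiviral enzyme viperin, was at 196 and 83.7 CPM (ratio 0.428, 0.336 to 0.543), Stat2, which carries the interferon signal, at 59.2 and 29.4 CPM, and Usp18, which dampens it, at 265 and 169 CPM (ratio 0.636, 0.528 to 0.766). Macrophage barcodes hold far more of these transcripts, 27112 and 23930 CPM summed over the list against 8146 and 6644 CPM in the class. Without the cells with myeloid RNA, 7 of 41 genes were lower and 1 higher, with a median of −0.21. Stat2 was then at 44.7 and 27.7 CPM, under 1.5-fold. Rsad2 was at 107 and 56.1 CPM and Usp18 at 268 and 165 CPM, while Ifit2 moved from 138 and 77.5 CPM to 89.5 and 75.3 CPM, also under 1.5-fold. The part of RNA from myeloid cells in the remaining values was not tested. The list medians were −0.15 in Gzmc-dominant cells and −0.22 in macrophage barcodes.

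Early response genes went both ways. Of 32 that passed, 4 were 1.5-fold higher and 2 lower, with a median of 0.14. Nfkbia was at 410 and 718 CPM (ratio 1.75, 1.55 to 1.99) and Junb, an AP-1 subunit, at 1109 and 1777 CPM (ratio 1.60, 1.49 to 1.73). Nr4a1 and Ifrd1, a transcriptional coregulator at 68.3 and 119 CPM, were the others. The 2 lower genes were Jun, another AP-1 subunit, at 400 and 255 CPM and Atf3, a stress factor, at 70.8 and 40.0 CPM. Without the cells with myeloid RNA, Atf3 was at 50.5 and 32.4 CPM, under 1.5-fold, and 1 gene of the list was lower. Nfkbia was higher in ketogenic Gzmc-dominant cells, at 209 and 360 CPM, and in ketogenic macrophage barcodes, at 473 and 704 CPM.

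The 12 largest ratios in each direction, among genes with no cell over 20% of their UMIs, included 12 genes higher in the ketogenic library: Rgcc, Rrad, Zfp326, Cwc25, Fdx1, Ier5l, Esf1, Aimp1, 5430416N02Rik, Nfkbia, Cdk4 and Spry2. Rgcc, a regulator of the cell cycle, had 13 and 77 UMIs (ratio 2.87, 1.58 to 5.64). Several others were also low in the normal library and rest on few UMIs there. Without the cells with myeloid RNA, Rrad and Cwc25 were each at 15.9 and 42.25 CPM. Zfp326 was then at 17.3 and 41.6 CPM and 5430416N02Rik at 18.8 and 40.3 CPM. Aimp1, a cofactor of tRNA synthetases, was at 96.6 and 185 CPM, and Spry2, an inhibitor of receptor kinase signaling, at 115 and 206 CPM. Those lower were AY036118, Ifit1bl1, AA467197, Gm42418, Fam122a, Rsad2, Metap1, Rabgap1, Gbp3, Glrx, Slc28a2 and Ms4a6c. Gm42418, which overlaps ribosomal RNA sequence, was at 5787 and 2318 CPM, and in barcodes of at most 100 UMIs at 35275 and 13748 CPM. AA467197 was at 304 and 104 CPM (ratio 0.343, 0.280 to 0.420), against 464 and 259 CPM in Gzmc-dominant cells. Glrx, a glutaredoxin, was at 117 and 49.4 CPM, and at 101 and 45.5 CPM without the cells with myeloid RNA. Ms4a6c is a monocyte gene at 1639 and 1583 CPM in macrophage barcodes, and was at 63.1 and 24.99 CPM in the class.

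Among metabolic genes, those encoded by the mitochondrial genome were lower as a group. The 12 mitochondrially encoded genes that passed had a median of −0.54, with 5 lower and 0 higher by 1.5-fold, and summed to 24210 and 15742 CPM. The median was −0.58 in Gzmc-dominant cells and −0.48 in macrophage barcodes, and the median mitochondrial share of UMIs per cell was 2.29% and 1.44% in the class. Ribosomal protein genes, matched by name, had a median of 0.18 with 0 of 77 past 1.5-fold. Genes of fatty acid and ketone body use had a median of 0.04, with 0 of 14 past 1.5-fold. Among them, Oxct1, the enzyme that activates ketone bodies for use, had 21 and 30 UMIs (ratio 0.693, 0.384 to 1.27), and Cpt1a, which passes fatty acids into mitochondria, 15 and 36 UMIs (ratio 1.16, 0.622 to 2.29). Of 15 glycolysis genes, 2 were 1.5-fold lower, with a median of −0.24, and without the cells with myeloid RNA 1 was lower, with a median of −0.19. Ldha, lactate dehydrogenase, was at 563 and 595 CPM.

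**Figure D5:**
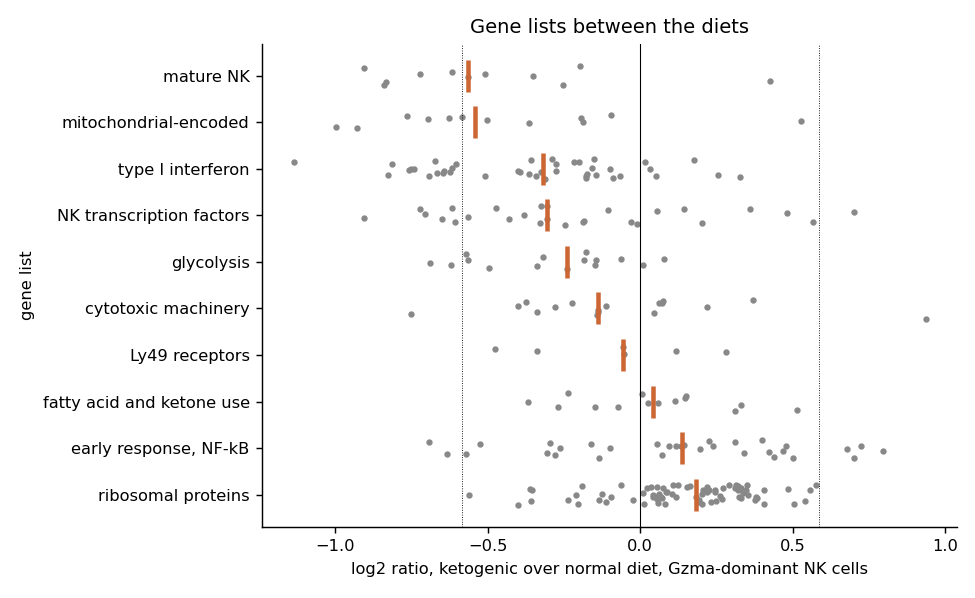
Log2 ratio of ketogenic over normal CPM in Gzma-dominant NK cells for genes of 10 lists that passed the filter. Grey points are genes with random vertical offsets, orange bars are list medians and dotted lines mark 1.5-fold. The medians run from −0.56 for mature NK genes to 0.18 for ribosomal protein genes.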

How the data were processed

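Per the file headers and the labels' protocols, the authors deposited an unnormalized UMI count for every gene in every barcode. Cell Ranger is given as version 4 in the file headers and as 6.0.0 in the submitters' processing notes. Those notes list Seurat 3.2.0, GRCm38 and mm10 too. The matrices are not filtered to cells. Barcode lists and gene lists were used as deposited. Gates, sums, ratios and intervals were computed with Python 3.11.15, numpy 2.4.6, scipy 1.17.1 and pandas 2.3.3, and figures with matplotlib 3.10.9. UMIs were summed over the cells of a class and library and scaled to a common total (CPM), with 19 gate genes left out of comparisons. The code was tested on simulated data. Macrophage barcodes had at least 20 UMIs of Lyz2 and C1q genes and none of the NK gate genes. The rule for named genes took the 6 markers, up to 8 members of each list with the highest CPM and then those past the fold, and the 12 largest ratios per direction, between diets leaving out genes with over 20% of their UMIs in 1 cell. Other genes named, the Ccl5 ranges and 2 alternatives were chosen after seeing the data, and ribosomal protein genes were matched by name. The members and lists were chosen with earlier results of these data known. Promoters came from RefSeq and gene positions from GENCODE vM21.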

Additional observations from a re-analysis of the deposited data

How the results depend on the processing

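No paired analysis was possible because each diet is 1 library with no replicate number. There were 15 alternatives, 13 planned and 2 added after seeing the data. The 9 that bear on which cells are counted gave ketogenic over normal share ratios of 1.08 to 1.32 among gated NK cells; the interval without cells over 6000 UMIs included 1. Counts of genes moved by over 1.5 times with the scale and filter. Genes higher and lower between diets numbered 147 and 494 with a pseudocount of 1 CPM, 11 and 46 with 50 CPM, 191 and 598 with no filter on low values, and 19 and 56 with a filter at 100 CPM. Thinning to 1500 UMIs before gating gave 333 and 739, and the mean of per-cell CPM gave 112 higher. Genes higher and lower than in Gzmc-dominant cells numbered 77 and 39 with 1 CPM, 13 and 9 with 50 CPM, 19 and 9 with the filter at 100 CPM, 63 and 51 after thinning, and 73 and 38 by per-cell means. The dendritic marker median of −1.0031 between diets became 0.0616 with no filter. With the filter, 4 of 11 markers counted, and all 4 were 1.5-fold lower. With no filter, markers of few UMIs counted too, 3 of them at 0 in the normal library. Of 645 values for named genes between diets 45 moved and 0 reversed, of 360 between classes 13 moved and 0 reversed, and of 415 list medians 9 moved and 1 reversed. Of 126 shares of cells with a UMI, 5 moved. With 1 library per diet, the spread between mice was not measured.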
